A study of Mus musculus with 8 samples.

Results

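Matrix metalloproteinases are zinc-dependent enzymes that cleave collagens, elastin, laminins and other proteins outside the cell, and tissue inhibitors of metalloproteinases (TIMPs) bind their active site. Most are made as inactive proenzymes that other proteases, among them membrane-bound metalloproteinases, convert to the active form. In the liver they are known from the build-up and breakdown of scar matrix, with stellate cells, macrophages, bile duct cells and endothelial cells as sources. The 10 genes described here were chosen by name, with earlier results of these data known, out of 35976 genes in the deposited table. They are 7 metalloproteinases (Mmp2, Mmp7, Mmp12, Mmp13, Mmp14, Mmp15 and Mmp19) and 3 inhibitors (Timp1, Timp2 and Timp3). All 10 passed the filter on low counts, though Mmp7 did so only through the libraries in which Opa1 was deleted.

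RNA of whole mouse liver was sequenced in 3 OPA1_LKO libraries, in which Opa1 was deleted in hepatocytes, and in 5 CTRL libraries, whose titles call them wild type. Both groups received a high fat diet, so no library shows the level on another diet. Opa1 encodes a dynamin-like GTPase needed for fusion of the inner mitochondrial membrane, and liver cells other than hepatocytes are not stated to lose it. The labels used here give no age, sex, strain, Cre driver or deleted exon, and do not say that each library is a separate animal, so p-values measure only the spread between these libraries, which may be technical.

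Library totals were between 16076392 and 20471256 rounded counts. Hepatocyte markers were abundant in all 8 libraries, their summed level being 71555 to 92024 CPM (counts brought to a common library size, with factors from the trimmed mean of M-values) in OPA1_LKO and 59331 to 105907 CPM in CTRL. Opa1 had 24.7, 34.4 and 34.0 CPM in OPA1_LKO libraries, against 39.9, 51.9, 44.0, 57.6 and 46.9 CPM in CTRL libraries. All OPA1_LKO values were below all CTRL values, and the log2 fold change of -0.63 ± 0.17 (SE) had a Benjamini-Hochberg adjusted p of 0.0539 in edgeR's quasi-likelihood test. CTRL replicate 1 stood apart from the other libraries. Its level of Apoe, an apolipoprotein, was 134 CPM, against 20759 to 33180 CPM in the others, and it held 6.85 CPM of Syn1 and 6.32 CPM of Syn2, genes of synaptic vesicles that did not exceed 0.508 and 0.224 CPM in the other libraries. OPA1_LKO replicate 2 held 31.6 CPM of Acta2, the actin of contractile cells, against 1.15 and 1.72 CPM in the other OPA1_LKO libraries and at most 8.39 CPM in CTRL.

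Mmp7 and Mmp2 rose in OPA1_LKO livers, Timp3 was higher in every OPA1_LKO library without passing the test, and the other 7 genes did not pass it. Over all genes, 846 of 14036 (6.03%) passed an adjusted p of 0.05 in edgeR's quasi-likelihood test with Benjamini-Hochberg adjustment, 469 higher (3.34%) and 377 lower (2.69%). Of the 10 family genes, 2 were called higher and 0 lower. As these genes were chosen with earlier results known, the shares over all genes stand beside their counts as description, not as a test. At an unadjusted p under 0.05 the counts were 4 higher and 1 lower, where 23.8% of all genes (3337 of 14036) reached that level, and DESeq2 called 4 higher and 0 lower, beside 6.03% and 6.1% of all genes (12.1% in all). Every OPA1_LKO library was above every CTRL library for 3 of the 10 genes (Mmp7, Mmp2 and Timp3), as for 8.0% of all genes, and below for 0 of the 10, against 8.41% of all genes, so that 16.4% of all genes had groups apart. The median log2 fold change of the 10 genes was 0.08, that of all genes tested -0.03. Calls depend on both libraries that stand apart: without CTRL replicate 1 the test called 4 of the 10 higher, while 12.2% of all genes were then called, and without OPA1_LKO replicate 2 it called Mmp7 only, with 4.69% of all genes. Mmp7 was also the sole call without OPA1_LKO replicate 3 (1.6% of all genes) or CTRL replicate 2 (3.19%), 4 (3.56%) or 5 (3.03%). Mmp7 and Mmp2 were called without OPA1_LKO replicate 1 (1.38% of all genes), without CTRL replicate 3 (5.12%), with upper-quartile scaling (5.82%), without the filter (2.7%) and by limma on log2(TPM + 1) or log2(TPM + 0.1) (4.35% and 3.99%). The 3 OPA1_LKO libraries with CTRL replicates 1 to 3 alone gave Mmp7 only, with a block for the replicate number (1.71% of all genes) or without (1.28%), and 10.9% of all genes were called without both libraries that stand apart, among them Mmp7, Mmp2 and, lower, Mmp19.

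**Figure D1:**
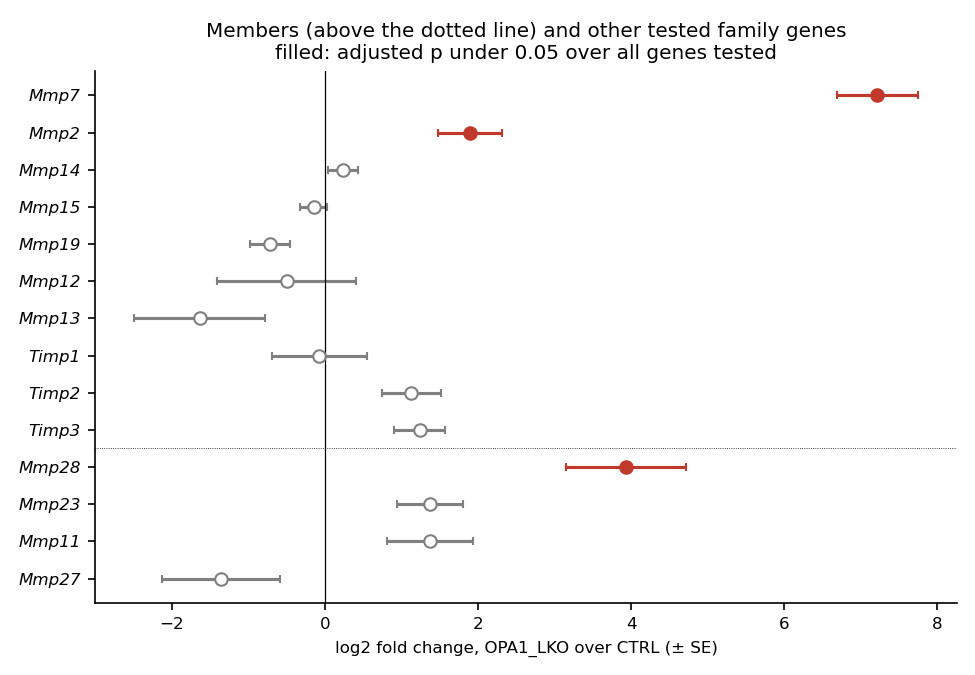
Log2 fold change of OPA1_LKO over CTRL for the 10 genes (above the dotted line) and the 4 other tested metalloproteinases, with its standard error, from the quasi-likelihood fit of edgeR; filled points passed the test. Mmp7 lies at 7.22 and Mmp2 at 1.90, while Mmp13 is the lowest of the 10 at -1.63 with a wide error.

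Mmp7 (matrilysin) is a small secreted protease without the hemopexin-like domain of most family members, made mainly by epithelia and known in the liver from bile duct cells. The gene is on chromosome 9 from 7692090 to 7699585 on the plus strand (GRCm38.p6). The RefSeq promoter table of that build holds windows for 8 of the 10 genes, each from 250 bases before to 50 bases after an annotated start. The Mmp7 window at chr9:7691840-7692139 (plus strand) is shown because this gene had the largest fold change of the family, with the AP-1 motif TGANTCA in capitals. This pattern takes in the binding sequence of Fos and Jun dimers, allows any base in the middle, and reads the same on both strands.
Mmp7: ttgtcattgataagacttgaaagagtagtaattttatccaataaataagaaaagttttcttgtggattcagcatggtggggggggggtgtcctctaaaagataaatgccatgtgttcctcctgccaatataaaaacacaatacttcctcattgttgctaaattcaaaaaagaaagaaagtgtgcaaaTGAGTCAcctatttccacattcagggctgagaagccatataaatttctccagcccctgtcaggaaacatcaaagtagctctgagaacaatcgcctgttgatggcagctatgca

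In the window shown, the AP-1 match of Mmp7 begins at -63 from the annotated start. A TATAAA match begins at -26 and another at -123, and CTTTGA, a core of the TCF/LEF motif, matches on the minus strand at 5 bases after the start. Searched on both strands, TGANTCA occurs in 7.81% of all 32851 promoter windows, TATAAA in 13.6% and CTTTGA in 16.0%. The last 3 letters of CTTTGA can be the first 3 of TGANTCA, but no matches overlap in the Mmp7 window shown. A second annotated start of Mmp7 has a window at chr9:7692091-7692390, which holds a CTTTGA match but no AP-1 or TATAAA match. A match describes the sequence and is not evidence of binding.

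Mmp7 was at 9.61, 19.1 and 14.3 TPM (transcript abundance per length, brought to a common total) in OPA1_LKO livers, against 0.33, 0, 0.06, 0 and 0.07 TPM in CTRL livers. The underlying counts were 160, 317 and 204 in OPA1_LKO libraries, against 4, 0, 1, 0 and 1 in CTRL libraries. Mmp7 passed the low-count filter through its OPA1_LKO libraries alone, so it could enter the test only by being high there. The groups lay far apart, OPA1_LKO replicate 2 was the highest, and CTRL replicate 1 held 4 of the 6 CTRL counts. In CPM the means were 11.2 ± 3.51 in OPA1_LKO (SD, n = 3) and 0.0651 ± 0.0871 in CTRL (SD, n = 5). This was a log2 fold change of 7.22 ± 0.53 (SE), for which edgeR's quasi-likelihood test gave a Benjamini-Hochberg adjusted p of 0.000325. With so few CTRL counts the size of the fold depends on the scale: it was 3.77 in log2(TPM + 1) and 6.41 in log2(TPM + 0.1), 2 scales on which the median of all genes itself lay at 0.09 and 0.14. The call held when any single library was left out (8 of 8 fits), with log2 fold changes between 6.91 and 8.28 and edgeR Benjamini-Hochberg adjusted p between 0.000105 and 0.00348.

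Of the 2 Mmp7 transcripts in the table, NM_010810.5 was at 9.61, 17.4 and 8.44 TPM in OPA1_LKO libraries and listed at 0 in all 5 CTRL libraries. NM_001319986.1 was at 0, 1.73 and 5.83 TPM in OPA1_LKO libraries, against 0.33, 0, 0.06, 0 and 0.07 TPM in CTRL libraries. The few CTRL counts were thus all assigned to NM_001319986.1, and OPA1_LKO replicate 3 divided its Mmp7 reads between both transcripts. For NM_010810.5 the exact two-sided permutation p was 0.0357, the smallest that the 56 divisions of the libraries allow, and 0.214 after Benjamini-Hochberg adjustment over 18 transcript comparisons. Among these 18 comparisons of family transcripts, 0 passed that adjustment, and 3 had an exact permutation p under 0.05, those of the Mmp7, Mmp2 and Timp3 transcripts. Passing would have needed most of the 18 comparisons to lie at the smallest p, so the adjusted outcome says little about any transcript. DESeq2 and edgeR were not run on transcripts.

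Of 9 tested markers of bile duct epithelium, edgeR called 3 higher (Spp1, Sox9 and Krt7) and 0 lower, beside 3.34% and 2.69% of all genes. The summed level of the list was 204, 222 and 167 CPM in OPA1_LKO, against 53.3, 38.3, 90.5, 35.2 and 46.2 CPM in CTRL. Spp1 (osteopontin, a matrix protein that macrophages also make) was at 154 ± 28.5 CPM in OPA1_LKO and 22.7 ± 7.36 CPM in CTRL and made up most of that sum in OPA1_LKO. Without Spp1 the sum was 40.2, 45.7 and 44.9 CPM in OPA1_LKO, against 20.2, 24.4, 69.6, 16.2 and 19.7 CPM in CTRL, so that CTRL replicate 3 lay above every OPA1_LKO library and the other CTRL libraries below. Sox9, a transcription factor of duct cells, was at 5.18 ± 1.35 CPM in OPA1_LKO and 1.56 ± 0.554 CPM in CTRL, and the keratin Krt7 at 3.63 ± 0.773 CPM in OPA1_LKO and 0.875 ± 0.455 CPM in CTRL. The keratin Krt19 and the adhesion molecule Epcam reached 22.3 and 16.8 CPM in CTRL replicate 3, above every OPA1_LKO library (2.13 to 5.67 and 5.15 to 10.5 CPM), while Mmp7 had 1 count in that CTRL library. Cftr was at 0 in CTRL replicates 1 and 2, and Cldn7 in CTRL replicate 2. Without CTRL replicate 3, 8 duct markers were called higher (5.12% of all genes called), and without OPA1_LKO replicate 3, 1 was (1.6%). In the fit without CTRL replicate 3, Krt19, Cldn4, Cldn7 and Cftr would not have passed the low-count filter without their OPA1_LKO libraries. These markers could thus enter that test only by being high in OPA1_LKO. The part of duct cells in the Mmp7 result was not tested; in RNA of a whole tissue, a change in the number of cells of a type and a change in RNA per cell cannot be told apart.

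**Figure D2:**
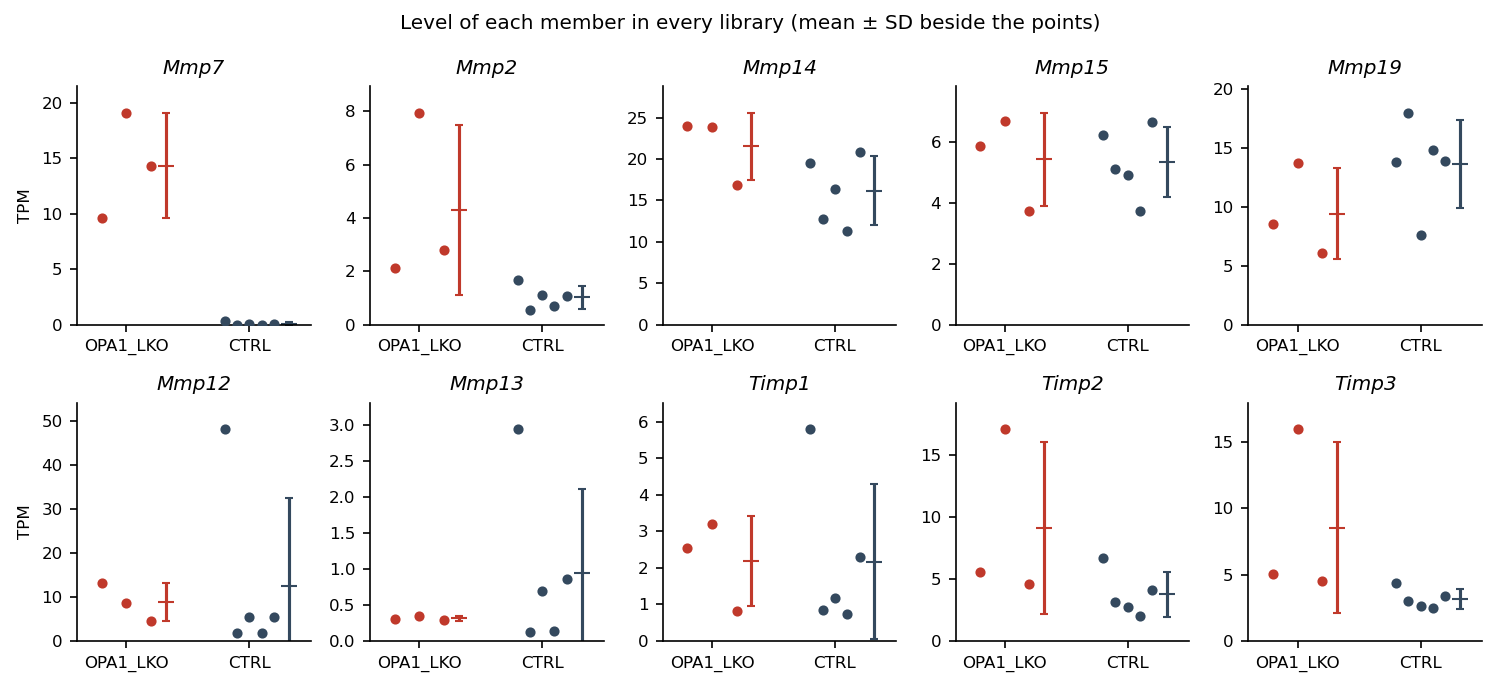
TPM of each of the 10 family genes in the 3 OPA1_LKO and 5 CTRL libraries, with mean ± SD beside the points. The groups are apart for Mmp7, Mmp2 and Timp3, CTRL replicate 1 is the highest library for Mmp12 (48.1 TPM) and Mmp13 (2.94 TPM), and OPA1_LKO replicate 2 for Timp2 (17.1 TPM) and Timp3 (16.0 TPM).

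Genes with provisional names (such as Gm or Rik) were left out of a search for genes with a pattern like that of Mmp7. The 5 other tested genes whose log2 CPM was most like that of Mmp7 over the 8 libraries were Arhgef10 (Pearson r = 0.994), Rassf9 (0.990), Epn3 (0.989), Cdkn2c (0.988) and Scube3 (0.986). All 8 libraries share the contrast between genotypes, which enters each coefficient. Rassf9, Epn3 and Scube3, with CTRL means of 0.116, 0.113 and 0.0875 CPM, passed the low-count filter through their OPA1_LKO libraries alone, as Mmp7 did. They could thus enter the search only by being high there. Arhgef10 was at 4.12 ± 0.135 CPM in OPA1_LKO and 1.82 ± 0.199 CPM in CTRL, and Scube3 at 1.59 ± 0.458 CPM in OPA1_LKO and 0.0875 ± 0.0802 CPM in CTRL.

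Mmp7 lies at one end of a run of 10 metalloproteinase genes that spans 427 kb of chromosome 9, from 7272514 to 7699585, in the order Mmp13, Mmp12, Mmp1b, Mmp3, Mmp1a, Mmp10, Mmp8, Mmp27, Mmp20 and Mmp7. Of these, 8 hold the AP-1 motif in a promoter window (the exceptions are Mmp8 and Mmp27), against 8.97% of all 27025 genes with a window, and 9 hold TATAAA (the exception is Mmp27), against 15.7% of those genes. The stretches around the AP-1 match, in capitals, are shown in the order of the cluster to set the shared motif beside the unlike levels of these genes. All are on the plus strand except Mmp1b, which is on the minus strand. The windows, in GRCm38.p6, are chr9:7272264-7272563 for Mmp13, chr9:7347124-7347423 for Mmp12 (a second annotated start), chr9:7387977-7388276 for Mmp1b, chr9:7445572-7445871 for Mmp3, chr9:7463891-7464190 for Mmp1a, chr9:7502092-7502391 for Mmp10 and chr9:7627981-7628280 for Mmp20.
Mmp13: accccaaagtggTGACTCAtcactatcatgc
Mmp12: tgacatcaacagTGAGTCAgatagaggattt
Mmp1b: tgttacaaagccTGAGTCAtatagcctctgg
Mmp3: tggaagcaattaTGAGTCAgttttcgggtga
Mmp1a: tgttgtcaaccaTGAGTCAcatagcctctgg
Mmp10: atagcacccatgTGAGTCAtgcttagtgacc
Mmp20: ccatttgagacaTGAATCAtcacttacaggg
Mmp7: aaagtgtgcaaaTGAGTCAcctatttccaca

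The match reads TGAGTCA in 6 of these 8 stretches. In Mmp13 it reads TGACTCA, which is TGAGTCA on the other strand, and in Mmp20 TGAATCA, with another middle base. Of these genes, 3, Mmp1a, Mmp1b and Mmp20, had no count in any of the 8 libraries, where 3 counts would amount to 0.135 to 0.206 CPM. Mmp3 (stromelysin-1) had 2, 40 and 1 counts in OPA1_LKO libraries, against 2, 1, 2, 0 and 1 in CTRL libraries, so that OPA1_LKO replicate 2 alone stood out. Mmp10 (stromelysin-2) had 3 counts in all, each in CTRL replicate 3, and Mmp8 (neutrophil collagenase) had 9 in OPA1_LKO and 10 in CTRL. The 4 cluster genes that passed the filter were Mmp7, Mmp12, Mmp13 and Mmp27, and Mmp7 was the one called. Mmp27 had 0.536 ± 0.101 CPM in OPA1_LKO and 1.37 ± 1.59 CPM in CTRL, where replicate 1 held 4.20 CPM (log2 fold change -1.36 ± 0.77, adjusted p 0.316 by edgeR with Benjamini-Hochberg adjustment).

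**Figure D3:**
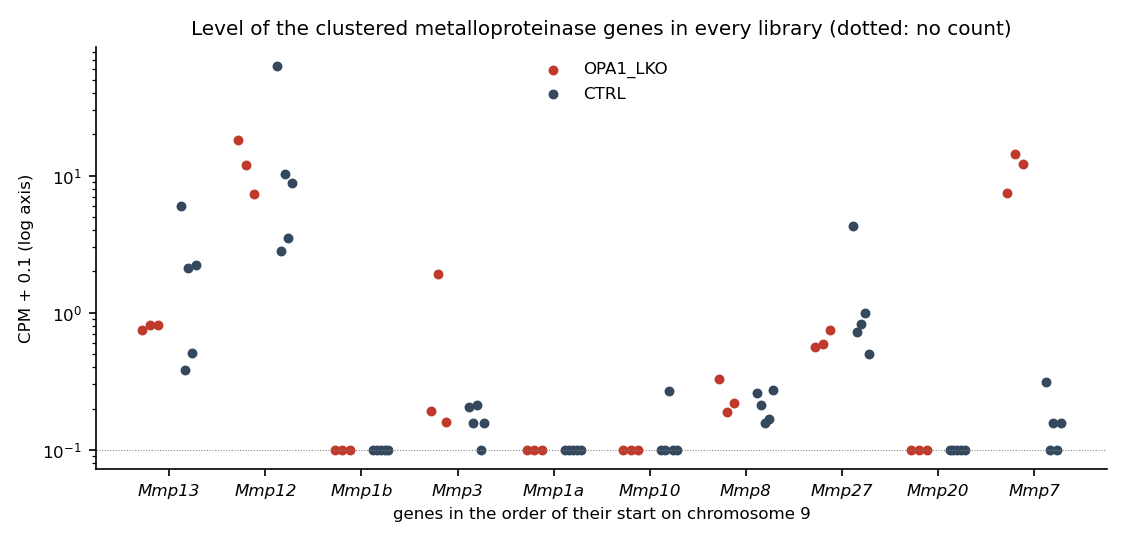
CPM + 0.1, on a log axis, of the 10 metalloproteinase genes of the chromosome 9 cluster in every OPA1_LKO and CTRL library, in the order of their starts, with a dotted line at no count. Mmp7, at the far end, has means of 11.2 CPM in OPA1_LKO and 0.0651 CPM in CTRL, while Mmp12 has 12.4 CPM in OPA1_LKO and 17.5 CPM in CTRL.

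Mmp12 (macrophage elastase) and Mmp13 (collagenase-3, the main interstitial collagenase of rodents) did not pass the test. Mmp12 was at 13.2, 8.60 and 4.57 TPM in OPA1_LKO livers, against 48.1, 1.83, 5.38, 1.83 and 5.43 TPM in CTRL livers. The groups overlapped, with CTRL replicate 1 far above all others. The log2 fold change was -0.50 ± 0.90 (adjusted p 0.776, edgeR with Benjamini-Hochberg adjustment) over all libraries and 0.99 ± 0.45 (0.173) without CTRL replicate 1, which turns the direction, as do both TPM scales. Mmp13 was at 0.30, 0.35 and 0.29 TPM in OPA1_LKO livers, against 2.94, 0.12, 0.69, 0.14 and 0.86 TPM in CTRL livers. Its OPA1_LKO libraries lay close together within the CTRL range, and its log2 fold change was -1.63 ± 0.85 (edgeR adjusted p 0.278, Benjamini-Hochberg) and -0.81 ± 0.66 (0.439) without CTRL replicate 1.

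The sums of both macrophage marker lists were also highest in CTRL replicate 1. Kupffer cell markers summed to 369, 409 and 278 CPM in OPA1_LKO, against 1253, 530, 324, 263 and 274 CPM in CTRL, and markers of recruited macrophages to 315, 373 and 219 CPM in OPA1_LKO, against 427, 95.0, 98.4, 71.1 and 117 CPM in CTRL. Of 10 markers of recruited macrophages 1, Spp1, which stands on the bile duct list as well, passed the edgeR test, as did 6.03% of all genes. Without Spp1 this sum was 150, 197 and 97.2 CPM in OPA1_LKO, against 394, 81.1, 77.4, 52.1 and 90.4 CPM in CTRL, so that OPA1_LKO replicate 3 was close to the highest of CTRL replicates 2 to 5. With CTRL replicate 1 left out, 5 of the 10 passed, while 12.2% of all genes were then called. Of the Kupffer cell markers, 0 of 10 passed the edgeR test in either direction. At an unadjusted edgeR p under 0.05, 1 was lower, as were 12.3% of all genes. DESeq2 called 1 lower, beside 6.1% of all genes. No macrophage marker on either list was at 0 in any library. The neutrophil genes S100a8 and S100a9 were low in CPM and did not exceed 1.89 and 2.45 CPM in OPA1_LKO. In CTRL they reached 5.68 and 8.13 CPM, both maxima in replicate 1. Per length they reached 8.17 and 7.88 TPM in OPA1_LKO and 29.65 and 27.51 TPM in CTRL. The part of these cells in the Mmp12 and Mmp13 values was not tested.

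**Figure D4:**
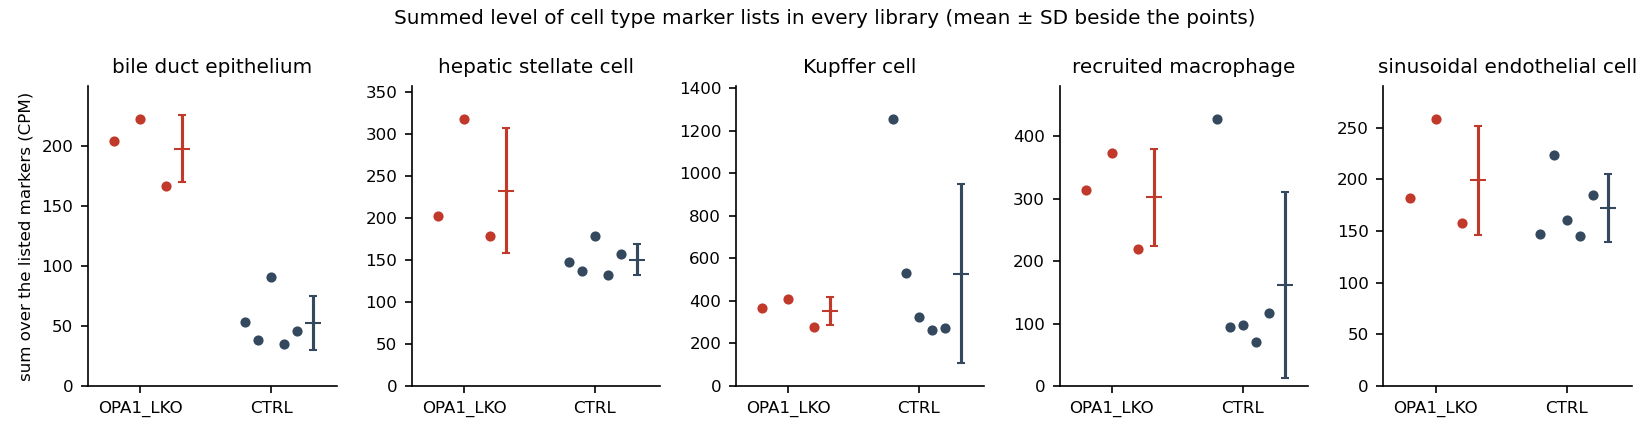
Summed CPM of 5 cell marker lists in the 3 OPA1_LKO and 5 CTRL libraries, with mean ± SD beside the points. Bile duct sums are 167 to 222 CPM in OPA1_LKO and 35.2 to 90.5 CPM in CTRL, but without Spp1 they overlap, at 40.2 to 45.7 CPM in OPA1_LKO and 16.2 to 69.6 CPM in CTRL. CTRL replicate 1 carries the highest macrophage sums.

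Mmp2 (gelatinase A) cleaves denatured collagen and basement membrane collagen and is made by stellate cells and fibroblasts as a proenzyme. It was at 2.14, 7.96 and 2.80 TPM in OPA1_LKO livers, against 1.69, 0.55, 1.10, 0.68 and 1.08 TPM in CTRL livers. Every OPA1_LKO library was above every CTRL library, but OPA1_LKO replicate 1 was close to CTRL replicate 1 and OPA1_LKO replicate 2 was far above the rest. In counts it had 114, 427 and 134 in OPA1_LKO libraries, against 74, 26, 66, 33 and 54 in CTRL libraries. This was a log2 fold change of 1.90 ± 0.42 (SE), for which edgeR's quasi-likelihood test gave a Benjamini-Hochberg adjusted p of 0.0295. Without OPA1_LKO replicate 2 it was 1.18 ± 0.36 with an edgeR Benjamini-Hochberg adjusted p of 0.0990. The call was also lost without OPA1_LKO replicate 3 (0.0671), CTRL replicate 2 (0.0607), CTRL replicate 4 (0.0652) or CTRL replicate 5 (0.0708), these being edgeR adjusted p with the same Benjamini-Hochberg method. It held without CTRL replicate 1, at 2.04 ± 0.44 (edgeR adjusted p 0.0188, Benjamini-Hochberg).

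Mmp14 and Mmp15 are membrane-type metalloproteinases, and Mmp14 activates the Mmp2 proenzyme together with Timp2. Mmp14 was at 24.0, 23.8 and 16.8 TPM in OPA1_LKO livers, against 19.5, 12.7, 16.4, 11.3 and 20.9 TPM in CTRL livers. The groups overlapped, and it was the member with the highest mean TPM in both, 21.5 ± 4.09 in OPA1_LKO and 16.2 ± 4.17 in CTRL. Its log2 fold change was 0.24 ± 0.20 (edgeR adjusted p 0.497, Benjamini-Hochberg). Mmp15 was at 5.89, 6.71 and 3.74 TPM in OPA1_LKO livers, against 6.25, 5.12, 4.93, 3.75 and 6.67 TPM in CTRL livers, ranges that nearly coincided (log2 fold change -0.15 ± 0.18, edgeR Benjamini-Hochberg adjusted p 0.666).

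Mmp19, a secreted protease that acts on basement membrane, had its highest values in CTRL. It was at 8.49, 13.7 and 6.08 TPM in OPA1_LKO livers, against 13.8, 18.0, 7.60, 14.8 and 13.9 TPM in CTRL livers. CTRL replicate 3 and OPA1_LKO replicate 2 made the groups overlap. The log2 fold change was -0.71 ± 0.27 (edgeR adjusted p 0.140, Benjamini-Hochberg), and without CTRL replicate 1 and OPA1_LKO replicate 2 together, a pair chosen after seeing the data, it was -1.09 ± 0.27 (0.0353), the one setting in which it was called. Transcript NM_001164197.2 made up 92.1% ± 13.6 of Mmp19 TPM in OPA1_LKO and 85.9% ± 9.34 in CTRL, with an exact two-sided permutation p of 0.464 for the difference. Part of Mmp19 lies over Tmem198b on the other strand, which was at 10.5 to 24.4 CPM. The library kit keeps strand, but whether counting used it is not given in the sources used here, so reads of the pair may be mixed.

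The 3 inhibitors had unlike values. Timp3, which binds to matrix and also inhibits ADAM proteases, was at 5.08, 16.0 and 4.54 TPM in OPA1_LKO livers, against 4.40, 2.99, 2.67, 2.52 and 3.39 TPM in CTRL livers. All OPA1_LKO libraries were above all CTRL libraries, though 2 of them only narrowly, and OPA1_LKO replicate 2 was far above. Its log2 fold change was 1.24 ± 0.33 (edgeR adjusted p 0.0553, Benjamini-Hochberg), just outside the threshold, and 0.49 ± 0.14 (0.0938) without OPA1_LKO replicate 2. It was called without CTRL replicate 1 (edgeR adjusted p 0.0426, Benjamini-Hochberg) and by DESeq2 (0.00794). Timp3 lies within Syn3 on the other strand, and Syn3 was at 1.44 to 2.19 CPM, far below the 12.3 to 59.7 CPM of Timp3.

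Timp2, the inhibitor that takes part in Mmp2 activation, was at 5.56, 17.1 and 4.64 TPM in OPA1_LKO livers, against 6.74, 3.19, 2.75, 2.03 and 4.11 TPM in CTRL livers. The groups overlapped through CTRL replicate 1, and OPA1_LKO replicate 2 was again highest. The log2 fold change was 1.13 ± 0.39 (edgeR adjusted p 0.116, Benjamini-Hochberg), and 0.37 ± 0.28 (0.475) without OPA1_LKO replicate 2. It was called without CTRL replicate 1 (1.33, edgeR adjusted p 0.0480, Benjamini-Hochberg) and by DESeq2 (0.0465). Timp1, the inducible inhibitor of injured liver, was at 2.54, 3.20 and 0.83 TPM in OPA1_LKO livers, against 5.80, 0.85, 1.19, 0.74 and 2.29 TPM in CTRL livers. Values of both groups were spread over the same range, with a log2 fold change of -0.07 ± 0.62 (edgeR adjusted p 0.958, Benjamini-Hochberg) that turned to 0.53 without CTRL replicate 1 and to 0.13 in log2(TPM + 1). Timp1 lies within Syn1 on the other strand, and Syn1 had its highest value, 6.85 CPM, in that same CTRL library.

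**Figure D5:**
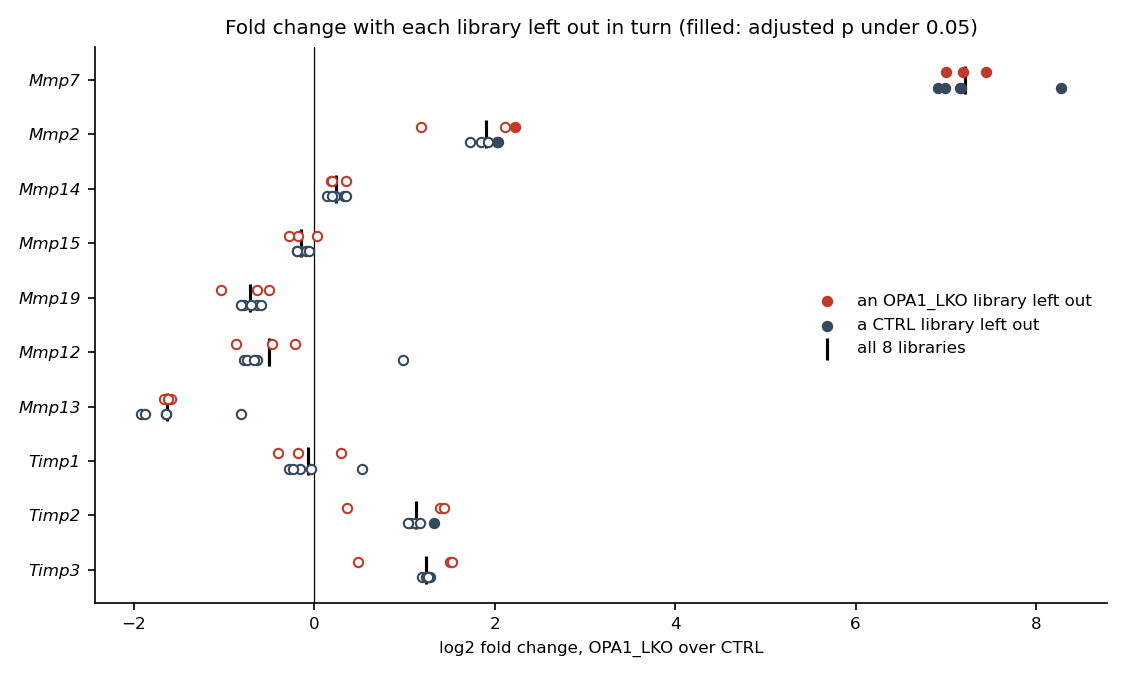
Log2 fold change of OPA1_LKO over CTRL for the family genes when each library is left out in turn, from edgeR, with filled points past an adjusted p of 0.05 and a bar for all 8 libraries. Mmp7 stays between 6.91 and 8.28, Mmp2 between 1.18 and 2.23, and Mmp12 turns to 0.99 without CTRL replicate 1.

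Of 10 stellate cell markers, 2 were called higher and 0 lower by edgeR, beside 3.34% and 2.69% of all genes. The sum of the list was 203, 318 and 178 CPM in OPA1_LKO, against 148, 137, 178, 132 and 158 CPM in CTRL. OPA1_LKO replicate 3 was level with CTRL replicate 3, and OPA1_LKO replicate 2, the highest library for Mmp2, Timp2 and Timp3, was the highest here too. The markers called were Hand2, a transcription factor of stellate cells, at 19.7 ± 4.47 CPM in OPA1_LKO and 8.33 ± 1.51 CPM in CTRL, and the growth factor receptor Pdgfra at 14.9 ± 3.77 CPM in OPA1_LKO and 4.72 ± 1.43 CPM in CTRL. None of the 10 was at 0 in any library, and the median log2 fold change was 0.71, or 0.36 without OPA1_LKO replicate 2. The count was 2 without that library as well (4.69% of all genes called) and 3 without OPA1_LKO replicate 3 (1.6%). In the 6 libraries of replicates 1 to 3, however, it was 0 with a replicate block (1.71%) and 1 without (1.28%). The part of stellate cells in the Mmp2, Timp2 and Timp3 values was not tested. Provisional names again left out, the genes whose log2 CPM was most like that of Mmp2 over the 8 libraries were Cyp1b1 (Pearson r = 0.993), Fstl1 (0.990), Ltbp2 (0.985), Slc6a7 (0.983) and Igsf10 (0.982). Of these, Ltbp2 encodes a protein bound to matrix microfibrils.

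Marker lists of other cells showed few or no calls. Of all genes, edgeR called 6.03% and DESeq2 12.1%, and 23.8% had an unadjusted edgeR p under 0.05. Of 8 sinusoidal endothelial markers 0 passed the edgeR test, 1 was higher at an unadjusted p under 0.05 and DESeq2 called 0. The same counts held for the 8 T or B cell markers, of which 1 was called higher without OPA1_LKO replicate 2 (4.69% of all genes called). Of 3 tested mesothelial markers and 3 tested neutrophil markers, 0 passed, at an unadjusted p under 0.05 or by DESeq2 as well. Without CTRL replicate 3, however, 1 mesothelial marker was called higher (5.12% of all genes called). The tested mesothelial markers include Krt19, which stands on the bile duct list as well and was at 22.3 CPM in CTRL replicate 3. Of 8 hepatocyte markers edgeR called 1, Tat, a tyrosine-degrading enzyme, at 1405 ± 291 CPM in OPA1_LKO and 462 ± 133 CPM in CTRL.

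Summed over the 7 metalloproteinases, TPM was 63.6, 80.2 and 48.6 in OPA1_LKO, against 92.7, 38.3, 36.2, 32.5 and 48.9 in CTRL. For the 3 inhibitors the sum was 13.2, 36.3 and 10.01 TPM in OPA1_LKO, against 16.9, 7.03, 6.61, 5.29 and 9.79 TPM in CTRL. Both sums overlapped between groups. The ratio of the sums was 4.82, 2.21 and 4.85 in OPA1_LKO and 5.47, 5.45, 5.47, 6.14 and 4.99 in CTRL, lower in every OPA1_LKO library, and by a narrow margin in 2 of them. Mmp7 made up 15.1% to 29.4% of metalloproteinase TPM in OPA1_LKO and at most 0.356% in CTRL. Mmp14 had 34.0% ± 4.03 in OPA1_LKO and 35.4% ± 9.53 in CTRL, and Mmp19 had 14.3% ± 2.40 in OPA1_LKO and 31.4% ± 14.4 in CTRL. Mmp12 took 51.9% in CTRL replicate 1. By mean TPM the order in OPA1_LKO was Mmp14, Mmp7, Mmp19, Timp2, Mmp12, Timp3, Mmp15, Mmp2, Timp1 and Mmp13, and in CTRL it was Mmp14, Mmp19, Mmp12, Mmp15, Timp2, Timp3, Timp1, Mmp2, Mmp13 and Mmp7. The third place of Mmp12 in CTRL (12.5 ± 19.99 TPM) rests on CTRL replicate 1, without which its mean was 3.62 ± 2.06 TPM (n = 4), below that of Mmp15 (5.12 ± 1.20 TPM). Mean ± SD overlapped between all neighbours in the CTRL order, among them Mmp2 (1.02 ± 0.446 TPM) and Mmp13 (0.95 ± 1.16 TPM), and between all in the OPA1_LKO order except Timp1 (2.19 ± 1.22 TPM) and Mmp13 (0.313 ± 0.0321 TPM).

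Of 17 further genes listed, the other metalloproteinases and Timp4, 4 passed the filter. Of these, edgeR called 1 higher and 0 lower, beside 3.34% and 2.69% of all genes. Mmp28 (epilysin, a secreted protease of epithelia) had 34, 27 and 11 counts in OPA1_LKO libraries, against 0, 3, 3, 0 and 0 in CTRL libraries. Mmp28, too, passed the filter through its OPA1_LKO libraries alone. The groups did not overlap, and the log2 fold change was 3.94 ± 0.79 with an edgeR Benjamini-Hochberg adjusted p of 0.0195. Without CTRL replicate 1, 5 of the further genes passed the filter and 2 were called higher, with 12.2% of all genes called. The Mmp28 call was lost when any OPA1_LKO library was left out (adjusted p 0.111, 0.0509 and 0.0575 without replicates 1, 2 and 3, edgeR with Benjamini-Hochberg adjustment). Mmp23, a membrane-anchored member, was at 5.31 ± 2.19 CPM in OPA1_LKO and 2.04 ± 0.966 CPM in CTRL, and Mmp11 (stromelysin-3) at 1.33 ± 0.188 CPM in OPA1_LKO and 0.504 ± 0.366 CPM in CTRL. For both, every OPA1_LKO library was above every CTRL library, as for 8.0% of all genes, with edgeR Benjamini-Hochberg adjusted p of 0.0900 and 0.172. Mmp11 had 28, 26 and 26 counts in OPA1_LKO libraries, against 12, 5, 9, 1 and 18 in CTRL libraries. Its CTRL libraries alone would not have passed the filter, so Mmp11 entered the test only through OPA1_LKO. The gelatinase Mmp9, known from neutrophils and macrophages, did not pass the filter, with 5, 10 and 1 counts in OPA1_LKO and 9, 5, 2, 0 and 5 in CTRL.

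Among substrates of these enzymes, 5 of 18 tested collagen and matrix genes were called higher by edgeR and 0 lower, with a median log2 fold change of 0.98. Over all genes, 3.34% were called higher and 2.69% lower, and the median was -0.03. Eln (elastin) was at 13.5 ± 5.40 CPM in OPA1_LKO and 2.34 ± 1.11 CPM in CTRL (log2 fold change 2.52), Col5a2 at 7.85 ± 1.97 CPM in OPA1_LKO and 2.25 ± 0.908 CPM in CTRL (1.79), and the basement membrane chain Col4a2 at 33.1 ± 7.55 CPM in OPA1_LKO and 14.3 ± 4.87 CPM in CTRL (1.21). The laminin chains Lama2 and Lamb1 had log2 fold changes of 1.98 and 0.71. Without CTRL replicate 1 the count of matrix genes called was 8 (12.2% of all genes called). It was 3 without OPA1_LKO replicate 1 (1.38%) or CTRL replicate 4 (3.56%). It was 2 without OPA1_LKO replicate 2 (4.69%) or 3 (1.6%), or CTRL replicate 2 (3.19%) or 5 (3.03%). With replicates 1 to 3 alone it was 1 with a replicate block (1.71%) and 0 without (1.28%). The scar collagens did not pass: Col1a1 was at 25.4 ± 14.2 CPM in OPA1_LKO and 12.7 ± 9.86 CPM in CTRL, and Col3a1 at 51.1 ± 31.5 CPM in OPA1_LKO and 30.3 ± 17.5 CPM in CTRL, with edgeR Benjamini-Hochberg adjusted p of 0.337 and 0.365.

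Of 14 tested ADAM and ADAMTS proteases, relatives that shed membrane proteins or cut proteoglycans, edgeR called 3 higher and 1 lower. The shares of all genes were 3.34% and 2.69%. Adamts15 was at 3.23 ± 0.681 CPM in OPA1_LKO and 0.988 ± 0.396 CPM in CTRL, the aggrecan-cleaving Adamts5 at 7.36 ± 4.31 CPM in OPA1_LKO and 2.31 ± 0.617 CPM in CTRL, and the procollagen-processing Adamts14 at 4.41 ± 1.48 CPM in OPA1_LKO and 1.58 ± 0.553 CPM in CTRL. Adamts7 fell to 4.53 ± 0.705 CPM in OPA1_LKO, against 8.50 ± 0.810 CPM in CTRL. Without CTRL replicate 1 the counts were 5 and 1 (12.2% of all genes called). They were 1 and 1 without OPA1_LKO replicate 2 (4.69%) or CTRL replicate 4 (3.56%) or 5 (3.03%). Without OPA1_LKO replicate 1 they were 1 and 0 (1.38%). They were 0 and 0 without OPA1_LKO replicate 3 (1.6%), and 0 and 1 without CTRL replicate 2 (3.19%).

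Of 8 genes of plasminogen activation, the protease cascade that activates several metalloproteinases, edgeR called 0. At an unadjusted p under 0.05, 1 was higher and 1 lower, and DESeq2 called 0. Without CTRL replicate 1, edgeR called 1 higher and 0 lower. Of all genes, edgeR called 6.03%, or 12.2% without CTRL replicate 1, and DESeq2 12.1%. An unadjusted edgeR p under 0.05 was reached by 23.8% of all genes. The activator Plat was at 4.31 ± 1.44 CPM in OPA1_LKO and 1.29 ± 1.31 CPM in CTRL. Among 10 other regulators edgeR called 0, with 2 higher and 2 lower at an unadjusted p under 0.05, 1 higher and 2 lower by DESeq2, and 2 higher and 1 lower by edgeR without CTRL replicate 1. Thbs2, a thrombospondin that clears Mmp2, was at 6.44 ± 4.67 CPM in OPA1_LKO and 2.01 ± 0.867 CPM in CTRL, and Pcsk6, a proprotein convertase, at 39.5 ± 11.3 CPM in OPA1_LKO and 71.2 ± 16.5 CPM in CTRL (edgeR Benjamini-Hochberg adjusted p 0.0561 and 0.0642). Of 9 collagen cross-linking genes edgeR called 0, with 3 higher and 0 lower at an unadjusted p under 0.05, 2 higher by DESeq2, and 3 higher and 0 lower by edgeR without CTRL replicate 1. Plod2 (lysyl hydroxylase 2) was at 2.48 ± 0.929 CPM in OPA1_LKO and 0.804 ± 0.356 CPM in CTRL, and Loxl1, which cross-links elastin, at 8.61 ± 5.24 CPM in OPA1_LKO and 2.97 ± 1.38 CPM in CTRL.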

How the data were processed

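Whole-liver RNA was made into strand-keeping, poly(A)-selected libraries, per the labels' protocols, and the tools listed in the submitters' processing notes are STAR, StringTie, RSEM and MultiQC (no versions given), with genome build mm10. The authors deposited expected counts estimated by RSEM, not normalised, per gene and per transcript. They also deposited TPM per gene and per transcript, corrected for length by RSEM, with a common total per library. RSEM divides reads that match several places by estimation.

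Expected counts were rounded to whole numbers. Genes were kept by filterByExpr of edgeR 4.0.16 (R 4.3.3; count minimum 10, total 15), which left 14036, and scaled with TMM factors. OPA1_LKO (3 libraries) was compared with CTRL (5) by edgeR's quasi-likelihood test with group as the only term, and p was adjusted by Benjamini-Hochberg over all genes tested, with a threshold of 0.05. Transcripts with a mean of at least 0.1 TPM were compared by exact two-sided permutation tests (scipy 1.17.1). Alternatives were DESeq2 1.42.0, upper-quartile factors, no filter, limma 3.58.1 on log2(TPM + 1) and log2(TPM + 0.1), each library left out, and a block for replicates 1 to 3. On simulated counts with 200 of 14036 genes changed, the edgeR test called 2% of those changed 1.5-fold, 36% at 2-fold, 86% at 4-fold and 96% at 8-fold, and 7 of 13836 unchanged genes.

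The family genes, the 17 lists (168 entries, all in the table) and the tests were chosen with earlier results of these data known. Named genes are the 10 family genes, Opa1, other metalloproteinases past the filter, the called genes of each list (the 2 with the smallest p where none was called), and the 5 genes most correlated with each called family gene. Genes with provisional names were left out of that last choice. Col1a1, Col3a1, Krt19, Epcam, Cftr, Cldn7, Acta2, the genes that overlap family genes and the metalloproteinases below the filter were named after their values were seen. Some genes that the rule names are left out of the text. No column of another sample was present (0).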

Additional observations from a re-analysis of the deposited data

Results flagged for a closer look

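Dixon's test for 5 values, which passes by chance in about 1 in 20 groups, was applied to the CTRL values of 66 tested genes, and 11 had a library past the 95% critical value of 0.71. CTRL replicate 1 was the highest library for 6 of them, with 62.6 CPM of Mmp12, 0.212 CPM of Mmp7, 4.20 CPM of Mmp27, 346 CPM of Cd5l, a Kupffer cell marker, and 8.13 and 5.68 CPM of the neutrophil markers S100a9 and S100a8. For Apoe it was the lowest, with 134 CPM. CTRL replicate 3 was the highest library for 4 duct markers, with 22.3 CPM of Krt19, 16.8 CPM of Epcam, 3.02 CPM of Cftr and 6.32 CPM of Cldn7. Apoe and these duct markers were among the genes named after their values were seen, which were picked in part because a library stood out. OPA1_LKO, with 3 libraries, was not examined in this way.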

How the results depend on the processing

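Mmp7 kept its direction and call under all 16 alternatives, and Mmp2 its direction under all 16 and its call under 9. Mmp13, Mmp14, Mmp19, Timp2 and Timp3 kept their direction under all 16. Limits are the group sizes, CTRL replicate 1, OPA1_LKO replicate 2, and, for Mmp7 and Mmp28, the handful of CTRL counts. Causes of the shifts below were not tested.

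The log2 fold change of Mmp12 was 0.54 in log2(TPM + 0.1), 0.39 in log2(TPM + 1), 1.02 without CTRL replicate 1 and OPA1_LKO replicate 2 together (chosen after seeing the data), and -0.87 to 0.99 with single libraries left out. That of Mmp15 was 0.0134 on both TPM scales, -0.30 without those libraries together and -0.28 to 0.0367 with single libraries left out. That of Timp1 was 0.23, 0.13 and 0.20 under the first 3 of these settings and -0.40 to 0.53 with single libraries left out.

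DESeq2 called 1692 genes (841 higher, 851 lower), 12.1% of all, among them 4 of the family, all higher. It called 30 genes of the other lists, against 16 by edgeR, which called 6.03% of all genes. In limma on log2(TPM + 0.1), 560 genes were called (447 higher, 113 lower), on log2(TPM + 1) 504 higher and 107 lower, and with upper-quartile factors 547 higher and 270 lower, against 469 and 377 by edgeR with TMM. Without a filter, 238 genes were lower. Without CTRL replicate 1 and OPA1_LKO replicate 2 together, 1537 were called (856 higher, 681 lower) and 1 family gene was lower. With single libraries left out, 198 to 1701 genes were called, 1.38% to 12.2% of all (144 to 924 higher, 54 to 777 lower). These held 1 to 4 of the family, 1 to 4 of them higher and 0 lower, and 7 to 33 of the other lists.

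The replicate numbers are not stated to pair the libraries. Deviations of same-numbered libraries correlated at 0.072, 0.0537 and 0.175, and each library correlated best with its own number among replicates 1 to 3. With the replicate block, 240 genes were called (146 higher, 94 lower), 1.71% of all. Among them were 1 of the family, which was higher, and 3 of the other lists. The same 6 libraries without the block, an alternative added after seeing the data, gave 179 genes (118 higher, 61 lower), 1.28% of all. Among those were 1 family gene, higher, and 4 of the other lists.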
